A study of Mus musculus with 8 samples.

Results

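The developing pancreas is invaded by neural crest cells, and this account follows 7 genes that mark them and the neurons they give rise to: *Sox10*, *Ret*, *Ednrb*, *Foxd3*, *Tubb3*, *Elavl4* and *Stmn2*. The genes were listed by name as known markers of these cells, at a time when earlier results of the same data were known. All 7 were found among the 24341 genes of the deposited expression table, and all 7 had a mean of at least 0.5 FPKM (fragments counted on a gene, divided by its transcript length and by the depth of the library) over the libraries, so that all were tested.

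Total RNA had been sequenced from 8 mouse pancreas buds at embryonic stage E11.0, at about 40 somites, each bud giving 1 library. The 5 WT buds carried no deletion according to their labels, and the 3 *Lats1/2*-null buds were Pdx1Creearly;Lats1f/f;Lats2f/f, that is, both floxed *Lats1* and floxed *Lats2* alleles together with a Cre driven by the *Pdx1* promoter. The methods name CD1 mice for WT experiments and the floxed and Cre lines otherwise. They give WT or heterozygous littermates as the controls of mutant embryos. *Lats1* and *Lats2* encode the kinases of the Hippo pathway that restrain the coactivators YAP1 and TAZ. The comparison asks how loss of these kinases in pancreatic progenitors altered the transcriptome of the bud, and the 7 genes were listed as markers of a cell population that surrounds and enters it. The *Pdx1* promoter is active in pancreatic progenitors and not in neural crest, so that in this model the crest cells are not the cells in which the Cre is designed to act. The mesenchyme had been pulled off each bud by hand, with no sorting of cells, so that nerve tissue attached to a bud is part of its library.

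Neural crest cells leave the dorsal neural tube, migrate into the gut and its outgrowths and there form neurons and glia. In migrating crest the transcription factors SOX10 and FOXD3 keep cells in a progenitor state, the receptor tyrosine kinase RET responds to GDNF family ligands, and the endothelin receptor EDNRB responds to endothelin 3. Cells that become neurons switch on βIII-tubulin (*Tubb3*), the RNA-binding protein HuD (*Elavl4*) and the microtubule-destabilizing protein stathmin 2 (*Stmn2*), whereas cells that become glia keep *Sox10*. Some of the genes are not private to the crest: *Ret* and *Ednrb* are also used by other embryonic cells, and pancreatic endocrine cells share many genes with neurons.

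All 7 genes were above 0 in all 8 libraries, and none passed the test between WT and *Lats1/2*-null buds after adjustment for all genes tested. *Sox10*, *Foxd3*, *Ret* and *Tubb3* had higher mean values in *Lats1/2*-null buds, *Stmn2* and *Ednrb* had lower ones, and *Elavl4* was nearly level. The values lay furthest from WT in *Lats1/2*-null replicate 3, where *Sox10*, *Ret*, *Foxd3* and *Tubb3* each had the highest and *Stmn2* the lowest value of the 8 libraries. In limma with Benjamini-Hochberg adjustment, 0 of the 7 passed an adjusted p of 0.05, beside 2 of the 13777 genes tested, a background of 0.0145%. At an unadjusted p under 0.05, 1 of the 7, *Sox10*, was higher in *Lats1/2*-null buds, beside 6.29% of all genes, and 0 of the 7 were lower, beside 4.99%. For no member did the 2 groups separate: 0 of the 7 had every *Lats1/2*-null value above every WT value, beside 4.46% of all genes, and 0 had every one below, beside 3.06%.

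As a check of the labels, *Lats1* was at 16.6, 15.8, 15.7, 14.1 and 15.6 FPKM in WT replicates 1 to 5 and at 12.3, 13.8 and 10.1 FPKM in *Lats1/2*-null replicates 1 to 3, all below WT, with a log2 fold change of -0.35 ± 0.10 (SE; limma adjusted p = 0.269). *Lats2* overlapped between the groups, at 11.6 to 14.7 FPKM in WT and 11.1 to 13.4 FPKM in *Lats1/2*-null buds. Gene-level FPKM also count exons outside the deleted part and cells without Cre. Between 16117 and 16982 genes were above 0 in each library. The libraries had similar depths but for WT replicate 5: 1 fragment on a transcript of 1000 bases was worth 0.134 FPKM there and 0.099 to 0.107 FPKM in the other 7, as read from 393 genes with a single exon. The deposited table holds no read counts, so these depths are estimates, and p-values measure the spread between these buds.

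*Sox10* encodes the transcription factor that marks migrating crest and its glia, and lies on chromosome 15 (GRCm38/mm10, chr15:79154913-79164490, minus strand). It was measured at 1.98, 1.65, 2.38, 3.50 and 1.97 FPKM in WT replicates 1 to 5 and at 3.70, 3.02 and 6.81 FPKM in *Lats1/2*-null replicates 1 to 3. All 3 *Lats1/2*-null buds were above the WT median and 2 were above the highest WT bud, replicate 4, while *Lats1/2*-null replicate 2 lay within the WT range. The means were 2.30 ± 0.72 FPKM (SD, n = 5) and 4.51 ± 2.02 FPKM (SD, n = 3), a ratio of 1.96. On the scale of log2(FPKM + 1), which understates changes of low genes, the fold change was 0.71 ± 0.24 (SE), with an unadjusted p of 0.0173 and an adjusted p of 0.330 by limma. The exact permutation test over the 56 ways to choose 3 of 8 libraries gave a two-sided p of 0.0536, the smallest it can give being 0.0179. *Lats1/2*-null replicate 3 carried a large part of the size: without it the ratio of means was 1.46 and the log2 fold change 0.42. With the 4-exon transcript of 2713 bases, the WT values correspond to about 40 to 95 fragments and the *Lats1/2*-null values to about 83 to 182. In these buds the number of crest cells, RNA per crest cell and RNA from other cells cannot be told apart. This holds for *Sox10* and for each gene that follows.

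*Foxd3* encodes a forkhead transcription factor of premigratory and early migrating crest. Its single exon lies at chr4:99656299-99658671 on the plus strand. It was the lowest of the 7 genes, at 0.519, 0.355, 0.674, 0.546 and 0.998 FPKM in WT replicates 1 to 5 and at 0.764, 1.05 and 1.96 FPKM in *Lats1/2*-null replicates 1 to 3. WT replicate 5 lay between the *Lats1/2*-null replicates, and the other 4 WT buds were below all 3 of them. The means were 0.618 ± 0.241 FPKM (SD, n = 5) and 1.26 ± 0.63 FPKM (SD, n = 3), a ratio of 2.04, which fell to 1.47 without *Lats1/2*-null replicate 3. The log2 fold change was 0.46 ± 0.20 (SE; limma adjusted p = 0.452), and the exact permutation p was 0.0536. These values rest on few reads, about 8 to 17 fragments in the WT libraries and about 17, 25 and 45 in *Lats1/2*-null replicates 1 to 3.

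The promoters of *Foxd3*, the gene with the highest ratio of *Lats1/2*-null to WT means, and of *Ednrb*, the gene with the highest level and a lower *Lats1/2*-null mean, are shown side by side as examples. Each window runs from 250 bases before to 50 bases after a RefSeq transcription start (GRCm38.p6), written 5′ to 3′ on the strand of the gene, and capitals mark the E-box CACGTG. They lie at chr4:99656049-99656348 on the plus strand and at chr14:103843652-103843951 on the minus strand.
*Foxd3*: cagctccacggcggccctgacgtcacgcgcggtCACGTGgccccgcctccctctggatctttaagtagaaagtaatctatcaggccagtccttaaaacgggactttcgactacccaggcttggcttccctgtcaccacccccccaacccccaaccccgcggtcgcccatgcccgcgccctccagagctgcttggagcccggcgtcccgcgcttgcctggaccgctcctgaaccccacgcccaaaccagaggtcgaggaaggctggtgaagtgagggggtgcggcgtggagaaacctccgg
*Ednrb*: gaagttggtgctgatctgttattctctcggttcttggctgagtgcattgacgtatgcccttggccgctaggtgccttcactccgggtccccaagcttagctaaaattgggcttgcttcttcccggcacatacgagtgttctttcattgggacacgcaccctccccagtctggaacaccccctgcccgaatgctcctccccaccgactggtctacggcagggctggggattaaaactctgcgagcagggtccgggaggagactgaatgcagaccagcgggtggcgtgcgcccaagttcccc
RefSeq windows were at hand for 4 of the 7 genes, *Foxd3*, *Ednrb*, *Tubb3* and *Elavl4*, with 7 windows in all, of which 4 belong to *Elavl4* and a pair of these overlap almost wholly, so that the windows are not independent. The letters GGAATG, bound by the TEAD factors through which YAP1 and TAZ act, were searched on both strands and occurred in 0 of the 7 windows, beside 14.7% of all 32851 mouse windows. CACGTG occurred in 1 of the 7, that of *Foxd3*, beside 7.15% of all windows. The GC content was 65.7% in the *Foxd3* window, 67.3% in that of *Tubb3* and 58.7% in that of *Ednrb*, and 47.3%, 46.0%, 43.7% and 57.0% in the 4 windows of *Elavl4*, against a median of 52.7% over all windows.

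*Ret* encodes the GDNF family receptor through which enteric crest cells migrate and survive (chr6:118151748-118197744, minus strand). It was measured at 3.62, 2.68, 2.76, 3.70 and 3.06 FPKM in WT replicates 1 to 5 and at 4.02, 3.11 and 5.66 FPKM in *Lats1/2*-null replicates 1 to 3. As for *Sox10*, *Lats1/2*-null replicates 1 and 3 were above every WT bud and replicate 2 was within the WT range. The means were 3.16 ± 0.48 FPKM (SD, n = 5) and 4.26 ± 1.29 FPKM (SD, n = 3), with a log2 fold change of 0.32 ± 0.17 (SE; limma adjusted p = 0.544) and an exact permutation p of 0.107. Without *Lats1/2*-null replicate 3 the ratio of means went from 1.35 to 1.13.

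The other genes of GDNF signaling were the 4 co-receptors that present the ligands to RET, the ligands themselves, and *Ret*, 9 genes in all and all tested. None passed the adjusted threshold. At an unadjusted p under 0.05, 2 were higher in *Lats1/2*-null buds, beside 6.29% of all genes, and 0 were lower, beside 4.99%. The 2 higher genes were *Gfra3*, the co-receptor for artemin, and *Gdnf*, the ligand of the GFRA1 and RET complex. Both had every *Lats1/2*-null value above every WT value, beside 4.46% of all genes. *Gfra3* was at 1.31, 0.697, 1.09, 1.01 and 0.536 FPKM in WT buds and at 1.57, 2.18 and 2.78 FPKM in *Lats1/2*-null buds, a log2 fold change of 0.72 ± 0.19 (SE; limma adjusted p = 0.233). *Gdnf* was at 3.51, 2.42, 3.11, 3.10 and 2.98 FPKM in WT buds and at 5.86, 3.52 and 8.48 FPKM in *Lats1/2*-null buds, a log2 fold change of 0.73 ± 0.22 (SE; limma adjusted p = 0.287). *Lats1/2*-null replicate 2 exceeded the highest WT value of *Gdnf* only in the third decimal, and without replicate 3 the log2 fold change of *Gdnf* was 0.47. *Gfra1*, the co-receptor for GDNF, was at 2.56 to 5.42 FPKM in WT and 2.80 to 3.31 FPKM in *Lats1/2*-null buds, and *Gfra2*, the co-receptor for neurturin, at 1.32 to 2.81 and 0.483 to 1.78 FPKM. *Gfra4*, the co-receptor for persephin, was at 1.32 to 3.03 FPKM in WT and 0.863 to 2.70 FPKM in *Lats1/2*-null buds. The ligands neurturin (*Nrtn*, 2.29 to 4.15 and 1.84 to 6.12 FPKM), artemin (*Artn*, 0.293 to 0.718 and 0.368 to 0.844 FPKM) and persephin (*Pspn*, 0.316 to 1.61 and 0.588 to 2.81 FPKM) overlapped widely between WT and *Lats1/2*-null buds. The median log2 fold change of the 9 genes was 0.14, beside -0.01 for all genes tested, and 0.081 over the 8 genes other than *Ret*.

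*Ednrb* encodes the endothelin receptor of crest cells and is also expressed by other cell types of the embryo (chr14:103814615-103844476, minus strand). It had the highest level of the 7 genes, at 9.53, 8.20, 5.28, 6.38 and 9.68 FPKM in WT replicates 1 to 5 and at 6.05, 5.83 and 6.79 FPKM in *Lats1/2*-null replicates 1 to 3. The *Lats1/2*-null values lay close together inside the lower part of the WT range, below the WT median in 3 of 3 buds. The means were 7.82 ± 1.94 FPKM (SD, n = 5) and 6.22 ± 0.50 FPKM (SD, n = 3), with a log2 fold change of -0.26 ± 0.18 (SE; limma adjusted p = 0.645) and an exact permutation p of 0.268. Unlike *Sox10* and *Ret*, *Ednrb* did not have an extreme value in *Lats1/2*-null replicate 3, and the fold change was -0.32 without it.

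Of the 7 genes of endothelin signaling, 6 were tested, 0 passed the adjusted threshold and 0 had an unadjusted p under 0.05 in either direction. *Edn3*, the ligand of EDNRB in the gut, was at 6.60 to 9.07 FPKM in WT and 7.47 to 10.6 FPKM in *Lats1/2*-null buds, and *Ednra*, the receptor of endothelin 1, at 4.05 to 7.22 and 4.69 to 5.32 FPKM. *Ece1*, the protease that matures the ligands, was at 28.5 to 38.9 FPKM in WT and 24.5 to 31.2 FPKM in *Lats1/2*-null buds, and its relative *Ece2* was at 3.43 to 10.1 and 2.72 to 6.63 FPKM. *Edn1*, the ligand of EDNRA, reached 7.81 FPKM in WT replicate 5, against 0.130 to 1.09 FPKM in the other 7 libraries. *Edn2* is listed at 0 in all 8 libraries. The median log2 fold change of the 6 tested genes was -0.22, beside -0.01 for all genes, and -0.11 without *Lats1/2*-null replicate 3. Over the 5 tested genes other than *Ednrb* it was -0.18 in all libraries.

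**Figure D1:**
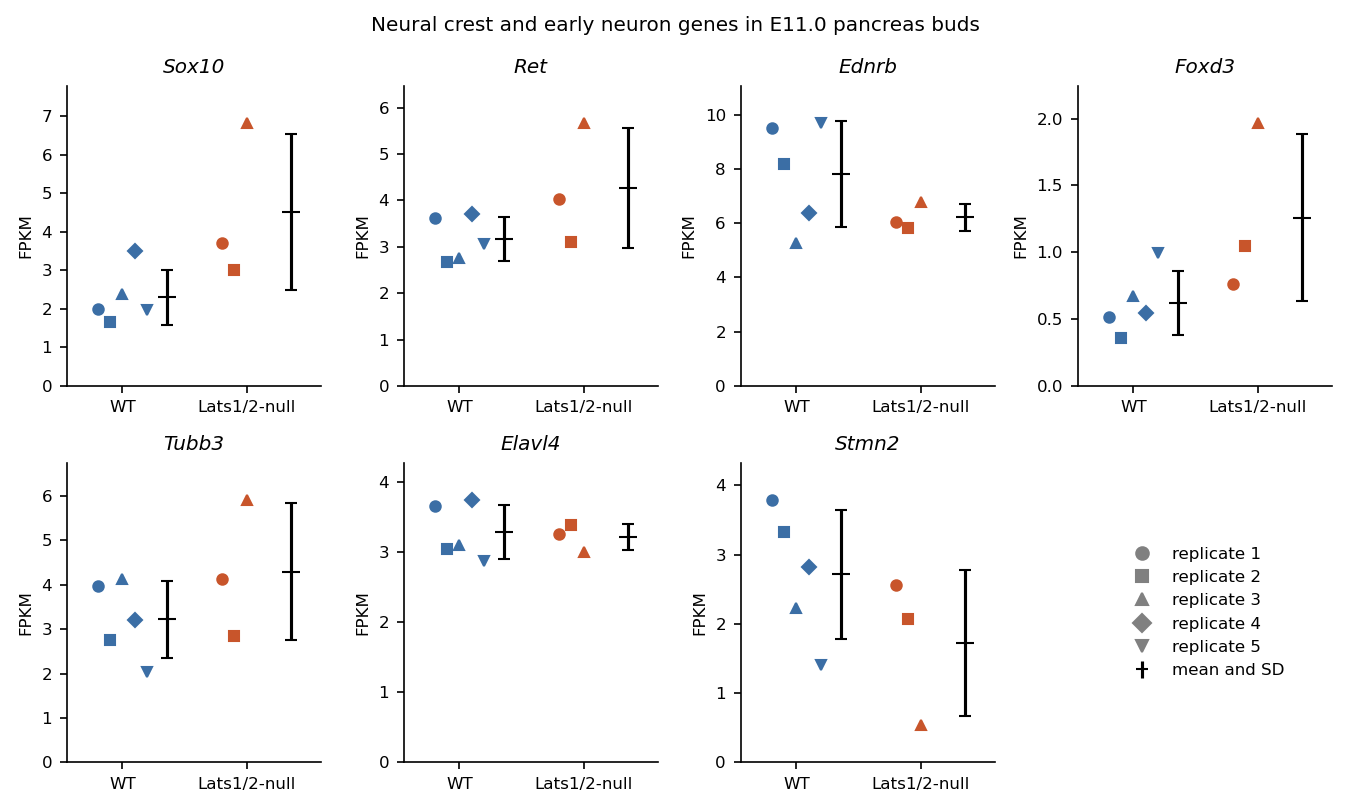
FPKM (linear axes from 0) of the 7 genes in the 5 WT libraries (blue) and the 3 *Lats1/2*-null libraries (orange), with a symbol for each replicate number and the mean and SD in black. The groups overlap for every gene, and *Lats1/2*-null replicate 3 (triangle) holds the highest *Sox10* value, 6.81 FPKM, and the lowest *Stmn2* value, 0.541 FPKM.

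*Tubb3* encodes the β-tubulin of neurons (chr8:123411564-123422010, plus strand). It was measured at 3.98, 2.76, 4.13, 3.21 and 2.04 FPKM in WT replicates 1 to 5 and at 4.13, 2.85 and 5.91 FPKM in *Lats1/2*-null replicates 1 to 3. *Lats1/2*-null replicate 3 was above every WT bud and the other 2 were within the WT range. The means were 3.23 ± 0.87 FPKM (SD, n = 5) and 4.30 ± 1.54 FPKM (SD, n = 3), with a log2 fold change of 0.31 ± 0.23 (SE; limma adjusted p = 0.665) and an exact permutation p of 0.304. Without *Lats1/2*-null replicate 3 the ratio of means went from 1.33 to 1.08.

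*Elavl4* encodes HuD, which stabilizes mRNAs of differentiating neurons (chr4:110203737-110351911, minus strand). It was the steadiest of the 7 genes, at 3.66, 3.05, 3.11, 3.75 and 2.88 FPKM in WT replicates 1 to 5 and at 3.26, 3.39 and 3.01 FPKM in *Lats1/2*-null replicates 1 to 3. All 3 *Lats1/2*-null values lay inside the WT range, *Lats1/2*-null replicate 3 included. The means were 3.29 ± 0.39 FPKM (SD, n = 5) and 3.22 ± 0.19 FPKM (SD, n = 3), with a log2 fold change of -0.02 ± 0.12 (SE; limma adjusted p = 0.965) and an exact permutation p of 0.821. Its coefficient of variation was 11.8% in WT and 5.93% in *Lats1/2*-null buds, the lowest of the 7 genes in each group.

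*Stmn2* encodes stathmin 2, which destabilizes microtubules in growing axons (chr3:8509527-8561604, plus strand). It was measured at 3.79, 3.32, 2.22, 2.82 and 1.41 FPKM in WT replicates 1 to 5 and at 2.56, 2.07 and 0.541 FPKM in *Lats1/2*-null replicates 1 to 3. *Lats1/2*-null replicate 3 was below every WT bud, the other 2 were within the WT range, and all 3 were below the WT median. The means were 2.71 ± 0.93 FPKM (SD, n = 5) and 1.73 ± 1.06 FPKM (SD, n = 3), with a log2 fold change of -0.49 ± 0.31 (SE; limma adjusted p = 0.602) and an exact permutation p of 0.214. Without *Lats1/2*-null replicate 3 the ratio of means went from 0.636 to 0.855 and the log2 fold change to -0.13. *Lats1/2*-null replicate 3 held about 11 fragments of the 2073-base transcript and WT replicate 5, the shallowest library, about 22, against about 43 to 75 in the others.

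The pair *Tubb3* and *Stmn2*, both taken as marks of young neurons, thus lay on opposite sides of WT in *Lats1/2*-null replicate 3, at 1.83 and 0.199 times their WT means. In the same library *Sox10* was at 2.97, *Foxd3* at 3.18, *Ret* at 1.79, *Elavl4* at 0.915 and *Ednrb* at 0.869 times the WT mean. The range of fold changes when each library was left out in turn stayed on 1 side of 0 for 6 of the 7 genes and crossed it for *Elavl4*.

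**Figure D2:**
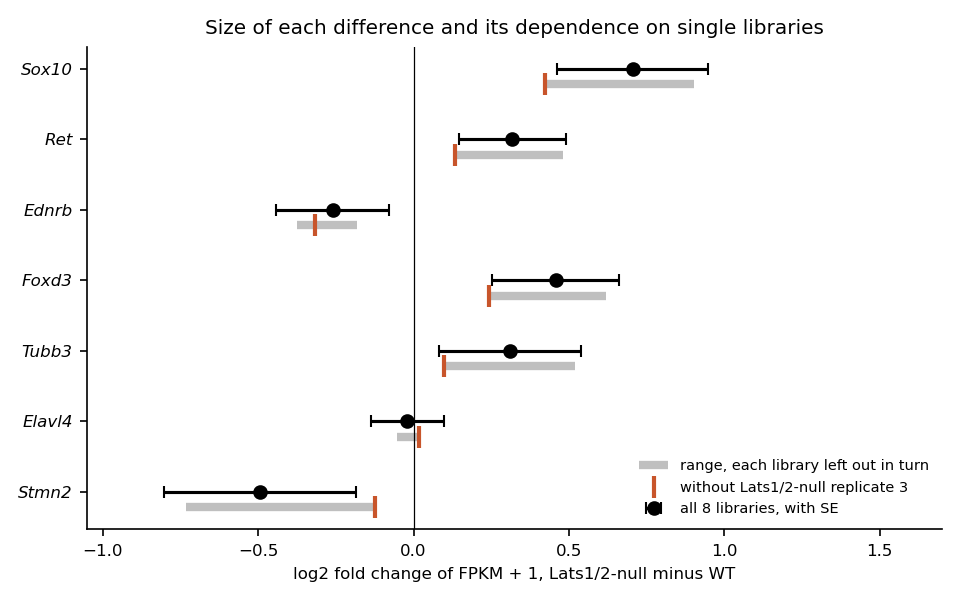
Log2 fold change of FPKM + 1, *Lats1/2*-null minus WT, for the 7 genes: black points with SE from all 8 libraries, grey bars the range when each library was left out in turn, orange ticks the value without *Lats1/2*-null replicate 3. The *Sox10* value moves from 0.71 to 0.42 and the *Stmn2* value from -0.49 to -0.13 without that library.

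FPKM are scaled by transcript length, so that levels can be ordered between genes. In WT buds the mean level was highest for *Ednrb* (7.82 FPKM), followed by *Elavl4* (3.29 FPKM), *Tubb3* (3.23 FPKM), *Ret* (3.16 FPKM), *Stmn2* (2.71 FPKM), *Sox10* (2.30 FPKM) and *Foxd3* (0.618 FPKM). *Ednrb* exceeded the next gene and *Sox10* exceeded *Foxd3* in 5 of 5 WT libraries, with ranges that did not overlap. The 5 genes between them had overlapping ranges, and none exceeded its next neighbour in more than 3 of 5 libraries. In *Lats1/2*-null buds *Ednrb* was again highest and *Foxd3* lowest by mean, *Sox10* stood second at 4.51 FPKM, and *Elavl4* exceeded *Stmn2* in 3 of 3 libraries without overlap. All other neighbours in that order overlapped.

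The 7 genes did not all move together across the buds. Over the 8 libraries, Pearson's r of log2(FPKM + 1) was above 0 in 11 of the 21 pairs of genes and below 0 in 10. The r of *Sox10* with *Ret* was 0.89 (exact permutation p = 0.00575, adjusted over the 21 pairs 0.0604) and Spearman's rho was 0.88 (exact permutation p = 0.00724, adjusted 0.0760). Without *Lats1/2*-null replicate 3 and WT replicate 2, the libraries farthest from the median of *Sox10*, this r was 0.55. *Sox10* with *Foxd3* had an r of 0.78 (exact permutation p = 0.0292, adjusted 0.183) and a rho of 0.60 (exact permutation p = 0.132, adjusted 0.529), and the r without the same libraries was -0.03, so that the relation rests on them.

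The 1 pair past an adjusted p of 0.05 was *Foxd3* with *Stmn2*, which ran in opposite directions. The r was -0.95 (exact permutation p = 0.00104, adjusted 0.0219) and rho was -0.93 (exact permutation p = 0.00223, adjusted 0.0469). Without *Lats1/2*-null replicate 3 and WT replicate 2 the r was -0.84. The values of both genes rest on few fragments, and WT replicate 5, the library of lowest depth, had the highest *Foxd3* and the lowest *Stmn2* value of the WT group. As for every pair, the libraries hold both genotypes, and *Foxd3* had a higher and *Stmn2* a lower mean in *Lats1/2*-null buds. A part of genotype or of depth in this relation was not tested, and no r was computed within a group of 5 or 3 libraries.

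Each member was also set beside all other tested genes by Pearson's r of log2(FPKM + 1) over the 8 libraries, as a description without a test, since the best of 13776 values over 8 points is high by selection alone. The genes most like *Sox10* were *Cacul1* (r = 0.98), *Dnajc2* (0.98) and *Fam3c* (0.98), and 83 genes reached 0.9. Most like *Ret* were *Neurog3* (0.97), the transcription factor of endocrine progenitors, and *Epb4.1l4a* (0.96). Most like *Ednrb* were *Arl4a* (0.96), *Zufsp* (0.95) and *Tspan2* (0.95), and most like *Foxd3* were *Ubxn4* (0.97), *Sars* (0.96) and *Cpe* (0.95), which encodes the prohormone-processing carboxypeptidase E. Most like *Tubb3* were *Efr3a* (0.96), *Fam219a* (0.96) and *Zbtb18* (0.95), and most like *Elavl4* were *Ost4* (0.96), *Lrrc8a* (0.95) and *Tpgs2* (0.94), with 10 genes at 0.9 or above. Most like *Stmn2* were the endothelial genes *Aplnr* (0.98) and *Cldn5* (0.97), followed by *Mtfr2* (0.97).

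A wider list of 12 transcription factors of crest and autonomic progenitors, *Sox10* and *Foxd3* among them, held 8 tested genes, 6 with a positive and 2 with a negative fold change. None of the 8 passed the adjusted threshold, and 2, *Sox10* and *Sox8*, were higher at an unadjusted p under 0.05, beside 6.29% of all genes. *Sox8*, the close relative of *Sox10*, was at 3.60, 2.70, 2.77, 2.95 and 2.33 FPKM in WT buds and at 4.91, 2.94 and 6.96 FPKM in *Lats1/2*-null buds, with a log2 fold change of 0.57 ± 0.21 (SE; limma adjusted p = 0.373). It was 0.33 without *Lats1/2*-null replicate 3, and the unadjusted limma p went from 0.0264 to 0.127. The *Lats1/2*-null replicates thus kept the order they had for *Sox10*, with replicate 3 highest and replicate 2 lowest. *Hand2* and *Zeb2*, which the mesenchyme also expresses, had the highest levels of the list, at 84.6 to 149 and 20.8 to 34.9 FPKM, and *Pax3*, a factor of the dorsal neural tube and early crest, did not exceed 0.0530 FPKM. The median log2 fold change of the 8 genes was 0.37, and 0.14 without *Lats1/2*-null replicate 3. Over the 6 of them that are not members it was 0.20 in all libraries.

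Among 9 genes of glia and Schwann cell precursors, 6 were tested and 0 passed the adjusted threshold. At an unadjusted p under 0.05, *Erbb3* and *Mbp* were higher, beside 6.29% of all genes, and *Ngfr* was lower, beside 4.99%. *Erbb3*, the neuregulin receptor of the glial lineage that epithelia also express, was at 4.26, 4.91, 3.58, 3.86 and 3.96 FPKM in WT buds and at 9.47, 6.11 and 18.4 FPKM in *Lats1/2*-null buds, without overlap, a log2 fold change of 1.15 ± 0.27 (SE; limma adjusted p = 0.196). *Mbp*, a myelin protein gene with transcripts outside glia, was at 2.95 to 3.37 FPKM in WT and at 5.70, 3.18 and 7.82 FPKM in *Lats1/2*-null buds. *Ngfr*, the low-affinity neurotrophin receptor of crest and of mesenchyme, was at 14.6 to 27.8 FPKM in WT and at 15.5, 15.6 and 7.31 FPKM in *Lats1/2*-null buds, a log2 fold change of -0.68 ± 0.27 (SE; limma adjusted p = 0.393). When *Lats1/2*-null replicate 3 was left out, the log2 fold change was 0.76 for *Erbb3*, 0.36 for *Mbp* and -0.34 for *Ngfr*, and of the 3 only *Erbb3* kept an unadjusted p under 0.05. *Fabp7*, a lipid-binding protein of Schwann cell precursors, was at 1.65 to 9.59 FPKM in WT and 3.78 to 9.99 FPKM in *Lats1/2*-null buds. *S100b* and *Gfap*, marks of later glia, were not tested and did not exceed 0.589 FPKM in any library.

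The 29 neuron genes, with *Tubb3*, *Elavl4* and *Stmn2* among them, held 25 tested genes, 10 with a positive and 15 with a negative log2 fold change and a median of -0.03. None passed the adjusted threshold. At an unadjusted p under 0.05, 1 was higher, beside 6.29% of all genes, and 2 were lower, beside 4.99%. *Stmn4*, a neuronal relative of *Stmn2*, was at 0.358, 0.0915, 0.556, 0.519 and 0.230 FPKM in WT buds and at 1.02, 1.47 and 6.05 FPKM in *Lats1/2*-null buds, without overlap, a log2 fold change of 1.29 ± 0.37 (SE; limma adjusted p = 0.267). The log2 fold change of *Stmn4* was 0.74 without *Lats1/2*-null replicate 3, and its ratio of means went from 8.10 to 3.54. Its WT mean, 0.351 FPKM, lay under the 0.5 FPKM minimum, so that *Stmn4* was tested only through its *Lats1/2*-null values. Both ratios rest on that low WT mean. The lower genes were *Ncam1*, a neural cell adhesion molecule also found in mesenchyme, at 21.8 to 34.0 FPKM in WT and at 19.3, 23.5 and 14.7 FPKM in *Lats1/2*-null buds, and *Syt1*, a calcium sensor of synaptic vesicles, at 1.10 to 2.75 and at 1.48, 1.03 and 0.372 FPKM. Neither kept an unadjusted p under 0.05 without *Lats1/2*-null replicate 3, where the log2 fold change of *Syt1* went from -0.57 to -0.34 and that of *Ncam1* from -0.52 to -0.35.

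The highest genes of the neuron list stood far above the 3 neuronal members, and which cells expressed them was not tested. *Nefm*, a neurofilament subunit, was at 292, 258, 298, 300 and 185 FPKM in WT buds and at 228, 268 and 98.8 FPKM in *Lats1/2*-null buds, and *Nefl*, its partner subunit, was at 83.2 to 128 FPKM in WT and at 84.0, 127 and 45.9 FPKM in *Lats1/2*-null buds. Like *Stmn2*, both had their lowest value in *Lats1/2*-null replicate 3 and their lowest WT value in replicate 5. *Uchl1*, a ubiquitin hydrolase of neurons, was at 29.0 to 47.8 and 28.5 to 34.8 FPKM. *Elavl3* and *Rbfox3*, marks of more mature neurons, did not reach the minimum for testing and did not exceed 0.810 FPKM.

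**Figure D3:**
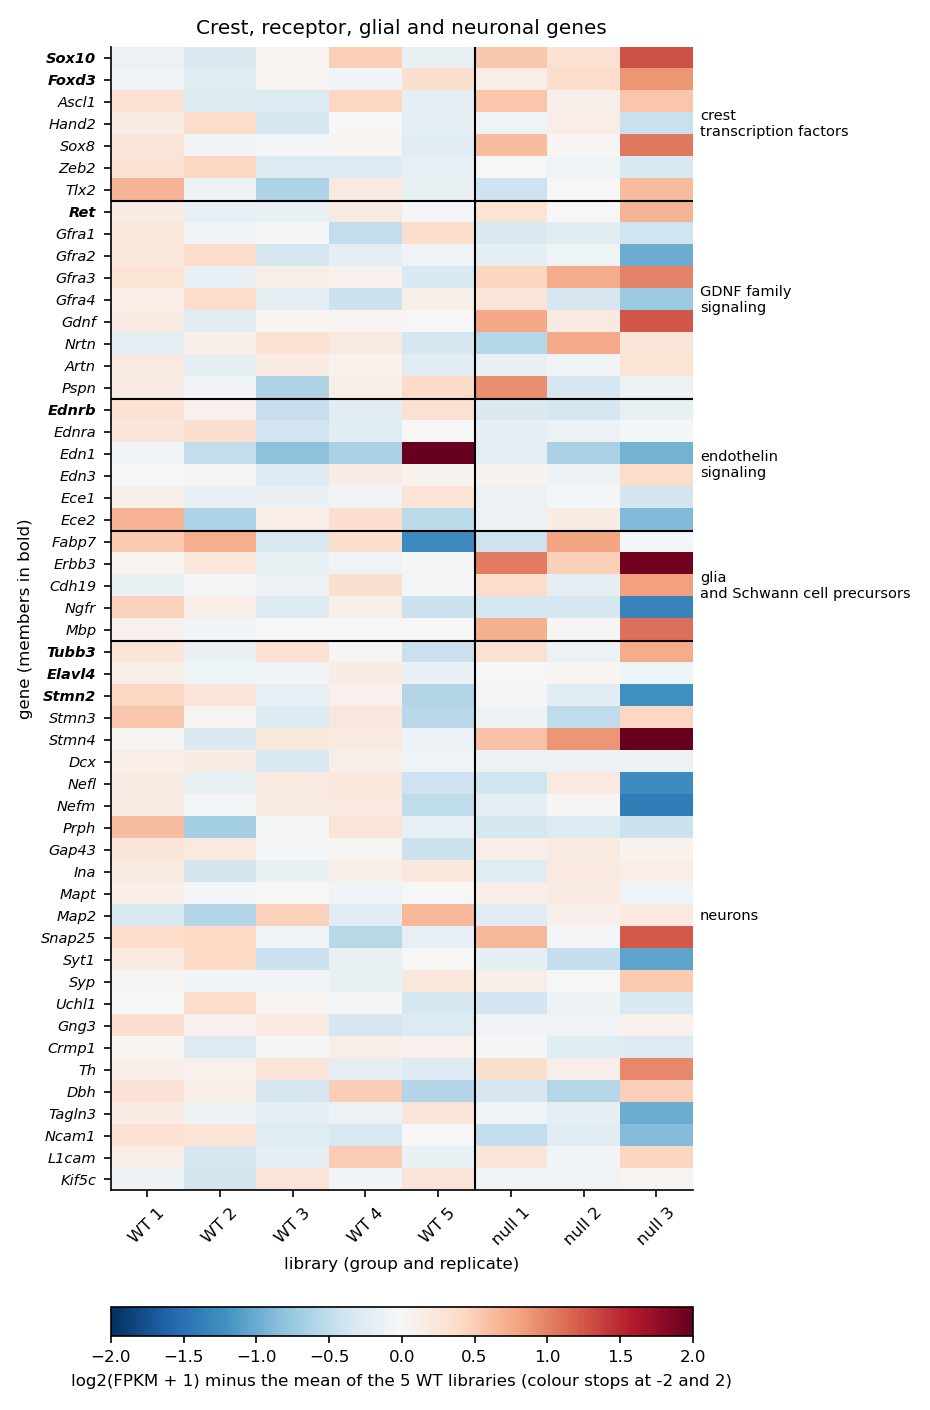
Log2(FPKM + 1) minus the mean of the 5 WT libraries (colour) for tested genes of the crest transcription factor, GDNF, endothelin, glia and neuron lists in each of the 8 libraries, the 7 members in bold. The last column, *Lats1/2*-null replicate 3, holds the strongest colours of both signs among the *Lats1/2*-null libraries, and *Edn1* in WT replicate 5, at 7.81 FPKM, is the strongest WT value.

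Each neuronal member was set within its family. *Tubb3* had the lowest mean level of the 8 β-tubulin genes in these buds. *Tubb5*, the general β-tubulin, was at 733 to 883 FPKM in WT and 726 to 839 FPKM in *Lats1/2*-null buds, *Tubb4b* at 121 to 177 and 164 to 187 FPKM, *Tubb2b* at 39.8 to 50.7 and 48.4 to 60.6 FPKM, and *Tubb6* at 29.3 to 44.3 and 35.3 to 41.3 FPKM. *Tubb2a* was at 22.8 to 30.1 FPKM in WT and 23.9 to 29.8 FPKM in *Lats1/2*-null buds, and *Tubb1*, the β-tubulin of platelets, at 2.77 to 8.11 and 3.77 to 8.03 FPKM. *Tubb4a*, a tubulin of the nervous system, was at 19.2, 13.9, 18.3, 13.6 and 13.0 FPKM in WT buds and at 24.2, 18.8 and 30.0 FPKM in *Lats1/2*-null buds, with a log2 fold change of 0.61 ± 0.17 (SE; limma adjusted p = 0.267). *Tubb4a* and *Tubb2b*, 2 of the 8, were higher at an unadjusted p under 0.05, beside 6.29% of all genes, and 0 passed the adjusted threshold. Reads of these near-identical coding sequences can be split uncertainly between family members.

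Among the ELAVL genes, *Elavl1*, which all cells use, was at 34.3 to 39.8 FPKM in WT and 35.5 to 37.4 FPKM in *Lats1/2*-null buds. *Elavl2* (HuB) was at 4.25 to 8.04 FPKM in WT and at 6.46, 6.10 and 2.44 FPKM in *Lats1/2*-null buds, lowest in replicate 3, and *Elavl3* (HuC) was at 0.283 to 0.553 and 0.267 to 0.450 FPKM. Among the stathmins, *Stmn1*, the form of dividing cells, was at 574 to 708 FPKM in WT and 519 to 660 FPKM in *Lats1/2*-null buds, and *Stmn3* at 0.253 to 1.67 and 0.285 to 1.44 FPKM. The neuronal stathmins did not move alike: in *Lats1/2*-null replicate 3 *Stmn2* was lowest and *Stmn4* highest of the 8 libraries. The median log2 fold change was 0.19 over the 8 tubulins, -0.03 over the 3 tested ELAVL genes and -0.12 over the 4 stathmins. That of the tubulins was 0.074 without *Lats1/2*-null replicate 3.

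**Figure D4:**
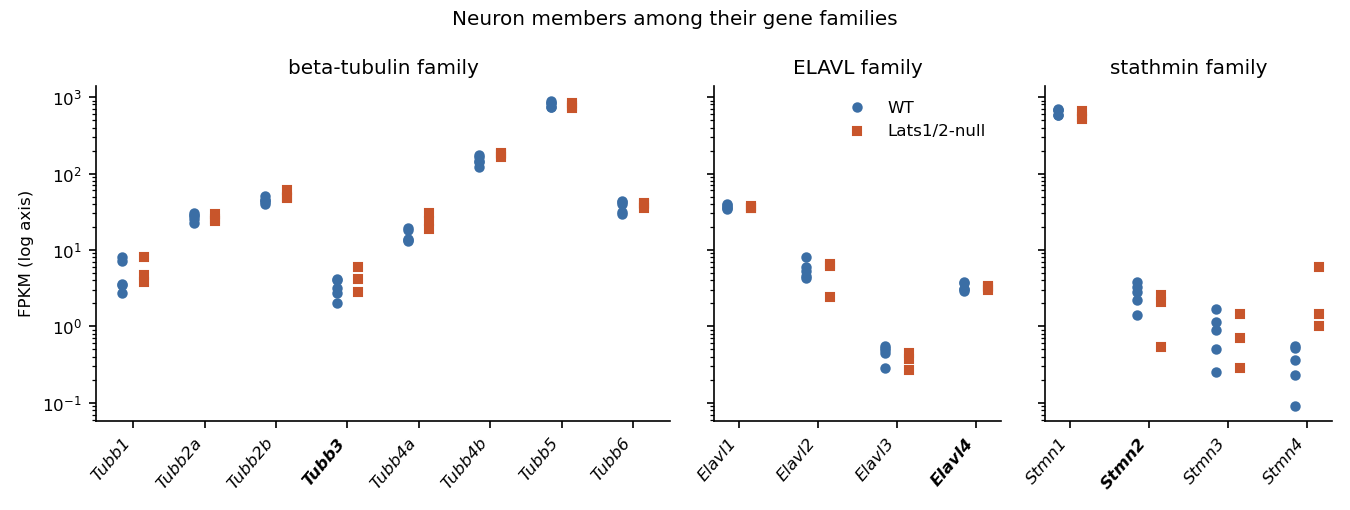
FPKM on a log axis for every gene of the β-tubulin, ELAVL and stathmin families in WT (blue circles) and *Lats1/2*-null (orange squares) libraries, the members in bold. *Tubb3* lies lowest among the tubulins by mean, and *Stmn4* is the gene of the 3 families whose groups do not overlap. The WT mean of *Stmn4*, 0.351 FPKM, lies under the 0.5 FPKM minimum for testing.

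Markers of other cell types of the bud are given beside the members, since their levels also differed between libraries. All 15 epithelial markers were tested, and 13 had every *Lats1/2*-null value above every WT value, beside 4.46% of all genes. The others, *Pdx1* and *Ptf1a*, overlapped between the groups, with log2 fold changes of 0.57 and -0.15 (limma adjusted p = 0.593 and 0.835). The summed level of the 15 markers was 254 to 331 FPKM in WT buds and 633, 527 and 1336 FPKM in *Lats1/2*-null replicates 1 to 3. The highest were *Krt18*, *Krt8* and *Epcam*, and *Spp1*, *Cldn3* and *Krt19* had the smallest p-values of the list, with limma adjusted p of 0.0631, 0.0743 and 0.0747. The summed level of 18 mesenchymal markers, led by *Barx1*, *Col3a1* and *Tcf21*, was 717 to 954 FPKM in WT buds and 573, 769 and 326 FPKM in *Lats1/2*-null buds, so that mesenchymal genes were present in every library. Over the 17 that could be tested the median log2 fold change was -0.45, and -0.16 without *Lats1/2*-null replicate 3. Of these, 16 had a fold change below 0 and 1, *Prrx1*, above 0. *Pdgfra*, *Foxf1* and *Col3a1* had the smallest p-values, and these 3 were lower at an unadjusted limma p under 0.05. *Prrx1* was higher at that threshold, with a log2 fold change of 0.61 ± 0.25 (SE; limma adjusted p = 0.400). It was 0.37 without *Lats1/2*-null replicate 3. The order of the *Lats1/2*-null replicates in the epithelial sum, 3 then 1 then 2, was that of *Sox10*, *Ret*, *Ednrb* and *Tubb3*, and the order in the mesenchymal sum, 2 then 1 then 3, was its reverse. Of the other members, *Foxd3* ran 3 then 2 then 1, *Stmn2* ran 1 then 2 then 3, and *Elavl4* had the mesenchymal order within its narrow range. *Ednrb* spanned only 5.83 to 6.79 FPKM in these libraries. With 3 libraries few orders are possible, so that a shared order carries little information.

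Genes of endocrine cells, which share neuronal genes, lay mostly above WT in *Lats1/2*-null buds: 25 of the 26 tested had a fold change above 0, and 0 passed the adjusted threshold. At an unadjusted p under 0.05, 13 were higher, beside 6.29% of all genes, and 1 was lower, beside 4.99%. The 13 became 7 without *Lats1/2*-null replicate 3, and the median log2 fold change went from 0.62 to 0.32. Their sum, of which *Gcg* made up 58.3%, was 1113 to 1425 FPKM in WT and 1963, 1399 and 3217 FPKM in *Lats1/2*-null buds, and *Pyy* and *Ghrl* were the next highest. *Ghrl* and *Scg2* were among the genes with the smallest p-values. The 14 endothelial markers, led by *Plvap*, *Ramp2* and *Cdh5*, summed to 209 to 343 FPKM in WT and 231, 215 and 139 FPKM in *Lats1/2*-null buds, and all 14 had a fold change below 0. For *Emcn*, *Tek* and *Robo4* every *Lats1/2*-null value was below every WT value, beside 3.06% of all genes. The median log2 fold change of the endothelial list was -0.40, and -0.25 without *Lats1/2*-null replicate 3. The crest list summed to 122 to 195 FPKM in WT and 136 to 165 FPKM in *Lats1/2*-null buds, of which *Hand2* made up 73.0%. The glial list summed to 25.6 to 45.5 and 36.6 to 43.3 FPKM, of which *Ngfr* made up 47.4%. The neuron list summed to 424 to 590 and 292 to 544 FPKM, of which *Nefm* made up 48.3%.

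*Sox10* and *Ednrb* are also expressed in melanoblasts. Of 7 melanoblast markers, *Dct*, an early mark of these cells, was above 0 in 2 of 5 WT buds (0.0910 and 0.234 FPKM in replicates 1 and 2) and in 3 of 3 *Lats1/2*-null buds (0.236, 0.0441 and 0.224 FPKM), too low to be tested. The pigment genes *Tyr*, *Tyrp1* and *Mlana* did not exceed 0.0762 FPKM in any library, *Mlana* being listed at 0 in all 8. *Kit*, which other cells share, was at 8.47 to 12.8 FPKM, *Mitf* at no more than 1.14 FPKM and *Pmel* at 0.0958 to 0.449 FPKM. The part of the epithelial, endocrine, endothelial and mesenchymal levels in the values of the 7 genes was not tested.

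**Figure D5:**
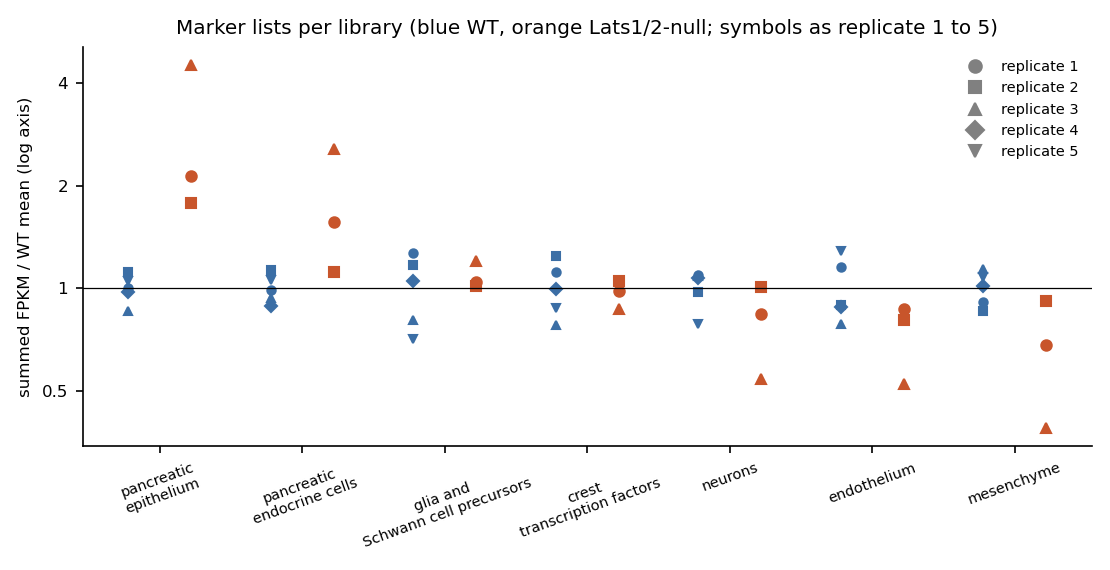
Summed FPKM of 7 marker lists in each library, divided by the mean of the 5 WT libraries (log axis), for WT (blue) and *Lats1/2*-null (orange) buds with a symbol for each replicate number. *Lats1/2*-null replicate 3 lies at 4.51 times the WT mean for the epithelial list and at 0.389 times for the mesenchymal list. It lies at 0.869 times for the crest list and at 1.20 times for the glial list. These sums join genes that went opposite ways there. *Sox10* was at 2.97 and *Hand2* at 0.723 times the WT mean, *Erbb3* at 4.48 and *Ngfr* at 0.357.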

How the data were processed

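Ribosome-depleted, strand-specific RNA-seq of 8 E11.0 pancreas buds was analysed. Per the methods and the labels, the authors trimmed reads with cutadapt 1.12, aligned them to GRCm38/mm10 with TopHat2 2.1.0, and deposited FPKM per gene, made with the Cufflinks 2.2.1 suite which the methods call quantile normalized although the deposited columns differ in distribution. The table also holds a status word per gene and library, not used here. Gene starts were taken as counted from 0, since 11857 of 23024 genes matched to RefSeq started 1 base before the RefSeq start, and 1 was added.

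The 5 WT and 3 *Lats1/2*-null libraries were compared by limma 3.58.1 (R 4.3.3) on log2(FPKM + 1), letting the variance follow the mean level, over the 13777 genes that averaged 0.5 FPKM or more, and by two-sided exact permutation tests of single genes. FPKM are not counts, so no count model was used. The script was tested on simulated data. The members and the gene lists were chosen with earlier results of these data known. Besides the members, the genes named were the 3 highest and the 3 of smallest p in each list, every gene of the GDNF, endothelin, tubulin, ELAVL and stathmin lists, the 3 genes most like each member, and a few others named after their values were seen, as known markers. A few genes that this rule or these lists include are not reported here. Fragments per gene were estimated from 393 single-exon GENCODE M21 genes of at least 1500 bases, by finding the FPKM step that placed the most of them within 3% of 1 to 4 whole fragments, and carry no interval. Alternatives covered the pseudocount, the filter, scaling, quantile normalization, array weights, the trend, a replicate block and each library left out.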

Additional observations from a re-analysis of the deposited data

Results flagged for a closer look

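Among 91 named genes, 3 had a WT value far from the other 4 by Dixon's criterion at 95%, where chance alone flags about 1 in 20 groups, and none of the 7 crest and neuron genes was among them. *Edn1*, a ligand of endothelin receptors, was at 7.81 FPKM in WT replicate 5 against 0.228 to 1.09 FPKM in the other WT buds. *Krt19*, a keratin of epithelium, was at 2.13 FPKM in WT replicate 3, the lowest of the WT group, whose highest value was 4.05 FPKM. *Spp1*, the gene of osteopontin, was at 8.78 FPKM in WT replicate 5, the highest of the WT group, whose lowest value was 2.73 FPKM.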

How the results depend on the processing

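The number of members past an adjusted p of 0.05 was 0 under all 16 alternatives, so that none of them turned a member into a call. The direction of the fold change held in every alternative for *Sox10*, *Ret*, *Ednrb*, *Tubb3* and *Stmn2* (16 each) and for *Foxd3* (15, since it has no value at a minimum mean of 2 FPKM). *Elavl4*, at -0.02, ranged from -0.055 to 0.018 with 1 library left out and changed sign without WT replicate 1 (0.011), WT replicate 4 (0.018) or *Lats1/2*-null replicate 3 (0.016). *Sox10* kept an unadjusted p under 0.05 in 15 of 16 alternatives, the exception being without *Lats1/2*-null replicate 3 (0.0800). The number of calls over all genes, 2, was 18 with a pseudocount of 0.1, 174 with array weights, 1 without the trend, 1 with the replicate block and from 0 to 69 with 1 library left out. At a minimum mean of 2 FPKM the median log2 fold change went from 0.31 to 0.15 for the members, from 0.14 to 0.23 for GDNF signaling, from -0.03 to -0.15 for neurons and from -0.12 to -0.33 for the stathmins. With array weights it was 0.039 for GDNF signaling and -0.13 for neurons, and with a pseudocount of 0.1 it went from 0.27 to 0.50 for glia. With 1 library left out it ranged from 0.10 to 0.48 for the members, from 0.14 to 0.53 for the crest factors, from 0.054 to 0.19 for GDNF signaling and from -0.62 to -0.16 for mesenchyme. The cause of these shifts was not tested.

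The labels number both groups from 1. Deviations from the group mean correlated at 0.09, -0.10 and 0.07 for replicates 1, 2 and 3. Pairs of buds with different numbers ran from -0.11 to 0.14, so that the numbers showed no pairing. These values cannot exclude a shared litter or batch. With the replicate block, *Sox10* had a log2 fold change of 0.82 and the members a median of 0.17, and no member passed.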
